A study of Schizosaccharomyces pombe with 2 samples.

Results

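The genes of TOR and cAMP signalling in *Schizosaccharomyces pombe* were examined in long-read transcript models. The set holds 10 of the 5113 protein-coding genes of the RefSeq annotation, namely the TOR kinases *tor1* and *tor2*, the TORC1 subunit *mip1*, the AGC-family kinases *gad8*, *sck1*, *sck2* and *psk1*, and the protein kinase A genes *pka1*, *cgs1* and *cgs2*. They were chosen by name, as genes of pathways that caffeine acts on, and all models that overlap them on either strand were taken. The models come from PacBio Iso-Seq, in which full-length cDNA of polyadenylated RNA is read from end to end on a known strand. The study used it to catalogue antisense transcripts, which are transcribed from the strand opposite to a gene.

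There are 2 libraries. The WT library was made from untreated WT cells. The pool library combined RNA of WT and of *hrp1*Δ*hrp3*Δ cells, which lack the CHD-family nucleosome remodellers Hrp1 and Hrp3, with each genotype grown untreated, with 14 mM caffeine or with 200 ng/ml clotrimazole, an antifungal azole. All cells grew in rich medium at 32 °C. Both genotypes are h+ and carry *ade6-M216*, together with *ura4-D18* and *leu1-32*, and the mutant carries in addition *hrp1del::kanMX* and *hrp3del*. The labels do not give the share of each genotype or treatment in the pool. Each condition has 1 library and no replicate, and the series text places the libraries in separate sequencing runs while the labels give the same batch for both. Genotype, treatment, run and depth cannot be told apart in any difference between the libraries, and no test was made between them.

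TOR kinases work in a pair of complexes that link nutrients to growth. In *S. pombe*, Tor2 is the kinase of TORC1, which promotes growth when nitrogen is plentiful, and Tor1 is the kinase of TORC2, which is needed for stress survival and sexual development. The AGC-family kinases are activated below these complexes. In the other pathway, glucose raises cAMP, which binds the regulatory subunit Cgs1 and frees the catalytic subunit Pka1, and the phosphodiesterase Cgs2 breaks cAMP down. Caffeine is known as an inhibitor of TORC1 in yeasts.

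The WT library holds 26120 models and the pool 69996, and their longest models measure 7540 and 7828 nt. The files give no read numbers, so the depth is unknown and a number of models is not an expression level. Genotype labels were checked at the altered loci. *ura4* has no sense model in either library, and 2 WT and 4 pool models cross it with a gap over nearly the whole coding sequence. At *hrp3* such a gap was seen in 3 pool models and in no WT model, beside 5 sense models in each library. *hrp1* has 5 sense models in WT and 6 in the pool, and none has such a gap.

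All 10 genes have sense models, meaning models on their strand that share at least 100 nt with the coding sequence, in WT and in the pool, where 90.9% and 98.6% of all protein-coding genes have them. A model was called full-length when it spans the start codon and the stop codon. In WT, 8 of the 10 genes have a full-length model, against 88.3% of all protein-coding genes, and in the pool 9 do, against 96.7%. The exceptions are *tor1* and *tor2* in WT and *tor1* in the pool. The 10 genes have 52 sense models in WT, of which 36 are full-length, and 123 in the pool, of which 73 are full-length. The median number per gene is 6 in WT and 12.5 in the pool, where the median over all genes with a sense model is 5 and 10.

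The ratio of pool models to WT models has a median of 2.27 over the 4645 genes with sense models in both libraries. It is lowest in *tor2* (6 models in WT and 7 in the pool, ratio 1.17) and highest in *sck1* (1 and 7, ratio 7). *pka1* has 2 models in WT and 9 in the pool and *cgs2* has 6 and 20, which gives ratios of 4.5 and 3.33. The other 6 genes lie between 1.75 in *mip1* and 2.5 in *tor1* and *sck2*. With so few models per gene, these ratios are given as a description.

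**Figure D1:**
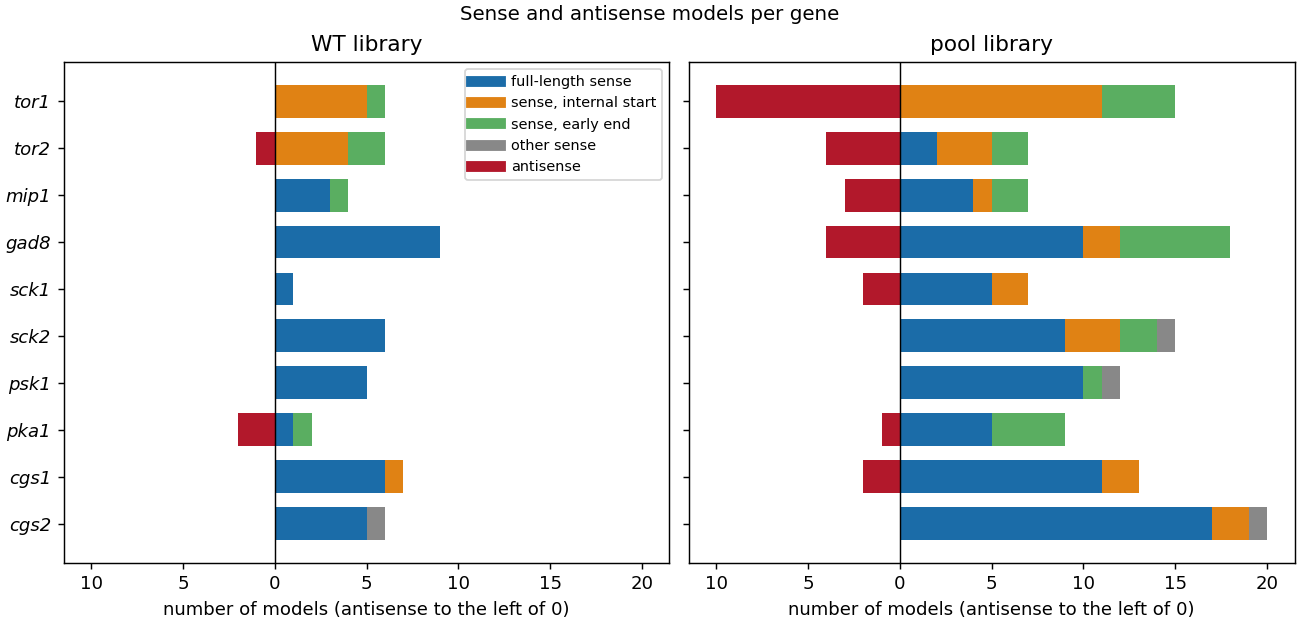
Number of sense models (to the right of 0, by class) and antisense models (to the left of 0) for each of the 10 genes in the WT library and the pool library; a model with both an internal start and an early end is drawn as internal start. *tor1* has no full-length model in either library, and its 10 antisense models in the pool are the most of any of these genes.

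*tor1* (SPBC30D10.10c, chromosome II, 3075748 to 3083248, + strand) has a coding sequence of 7008 nt without introns, and *tor2* (SPBC216.07c, chromosome II, 915085 to 922352, - strand) one of 7014 nt, also without introns. No *tor1* model spans the gene. The longest measures 4803 nt in WT, the longest of the pool 5809 nt, and the best model covers 67% of the coding sequence in WT and 79.7% in the pool. The models together nevertheless cover 100% of it in each library, because they fall into a 5′ and a 3′ set. The 5′ set starts 201 to 203 nt before the start codon and ends inside the coding sequence, with 1 model in WT and 4 in the pool. The 3′ set starts inside the coding sequence, with 5 models in WT and 11 in the pool, of which 2 also end early.

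At *tor2* the pool holds 2 full-length models, of 7340 and 7162 nt, both of which start at position 922352, the annotated start, 68 nt before the start codon. WT holds none, and its best model covers 60.7% of the coding sequence, while its 6 models together cover 91.7%. The 2 full-length models end 258 and 80 nt after the stop codon. These are among the longest models of the whole data, since only 2 WT models and 9 pool models are 7000 nt or longer.

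Full-length cover of these kinase genes was read against other genes of similar length. Of the 34 protein-coding genes with a coding sequence of at least 6000 nt, 3 have a full-length model in WT (8.82%, exact Clopper-Pearson 95% interval 1.86 to 23.7) and 11 in the pool (32.4%, interval 17.4 to 50.5). The intervals cover counting error only. Among the 23 genes of at least 7000 nt, none has a full-length model in WT, and in the pool only *tor2* and *spp42*, which encodes a spliceosome component, have one. For coding sequences of 3000 to 4000 nt, the class of *mip1*, the share is 96.1% in WT and 97.1% in the pool. The lack of a full-length *tor1* model is thus shared with most genes of its length in both libraries.

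**Figure D2:**
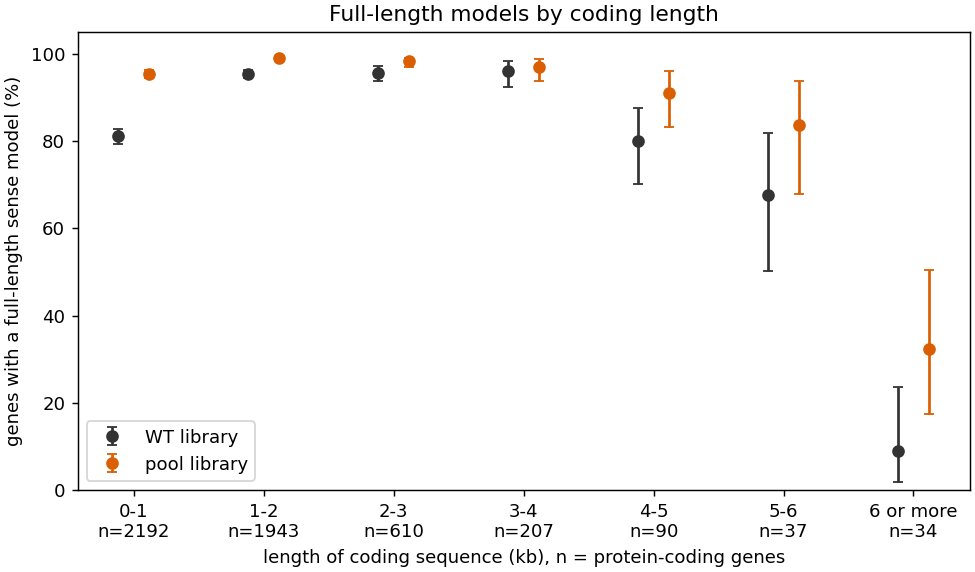
Percentage of protein-coding genes with at least 1 full-length sense model (y axis) by length of the coding sequence in kb (x axis), for the WT library and the pool library; bars are exact 95% Clopper-Pearson intervals and cover counting error only. The share falls to 8.82% in WT and 32.4% in the pool for coding sequences of 6 kb or more, the class of *tor1* and *tor2*.

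An internal start was counted when a sense model begins at least 100 nt after the start codon and before the stop codon. In WT, 3 of the 10 genes have such models (*tor1*, *tor2* and *cgs1*; 18.1% of all protein-coding genes do), and in the pool 8 have them (43.7% of all genes). The pool genes are *tor1*, *tor2*, *mip1*, *gad8*, *sck1*, *sck2*, *cgs1* and *cgs2*. The shares over all genes are not matched for length. Of the 5113 protein-coding genes, 2192 have a coding sequence below 1000 nt, whereas the shortest of the 10, in *cgs2*, measures 1041 nt. Whether the counts differ from those of genes of like length was not tested. *tor1* carries 5 of the 10 internal-start models of WT and 11 of the 26 of the pool, and *tor2* another 4 and 3. In *tor1* the WT starts lie 2316, 2994, 3189, 4000 and 4737 nt after the start codon, and those of the pool are scattered from 1420 to 4936 nt.

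The position of internal starts was compared between the libraries. Of the 10 internal starts of WT in these genes, 1 has an internal start of the pool within 10 nt, against 10.4% of such starts over all protein-coding genes. It is the *tor1* start 2994 nt after the start codon, which lies at 2989 nt in the pool. The 3′ ends of the same 10 WT models did recur, as 8 have the 3′ end of a pool sense model of their gene within 10 nt, against 74.8% over all genes. All 5 of these *tor1* models share their 3′ end with the pool in this way. The starts of full-length models recurred as well, 33 of 36 in these genes and 90.2% over all genes. In these genes, as over all protein-coding genes, the 3′ ends and the starts of full-length models were thus mostly shared between the libraries, and the internal starts mostly were not.

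How the models were collapsed bears on these starts. The authors' settings join a model with a shorter 5′ end to a longer model of the same structure and 3′ end. The remaining internal-start models of *tor1* accordingly have separate 3′ ends, at least 20 nt apart in WT and 17 nt apart in the pool. Whether an internal start is a site of transcription initiation or the end of an incomplete cDNA was not tested. The longest internal-start model of *tor1*, of 5809 nt in the pool, leaves 1737 codons from its first in-frame ATG, of the 2335 codons of the gene, and translation was not measured.

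**Figure D3:**
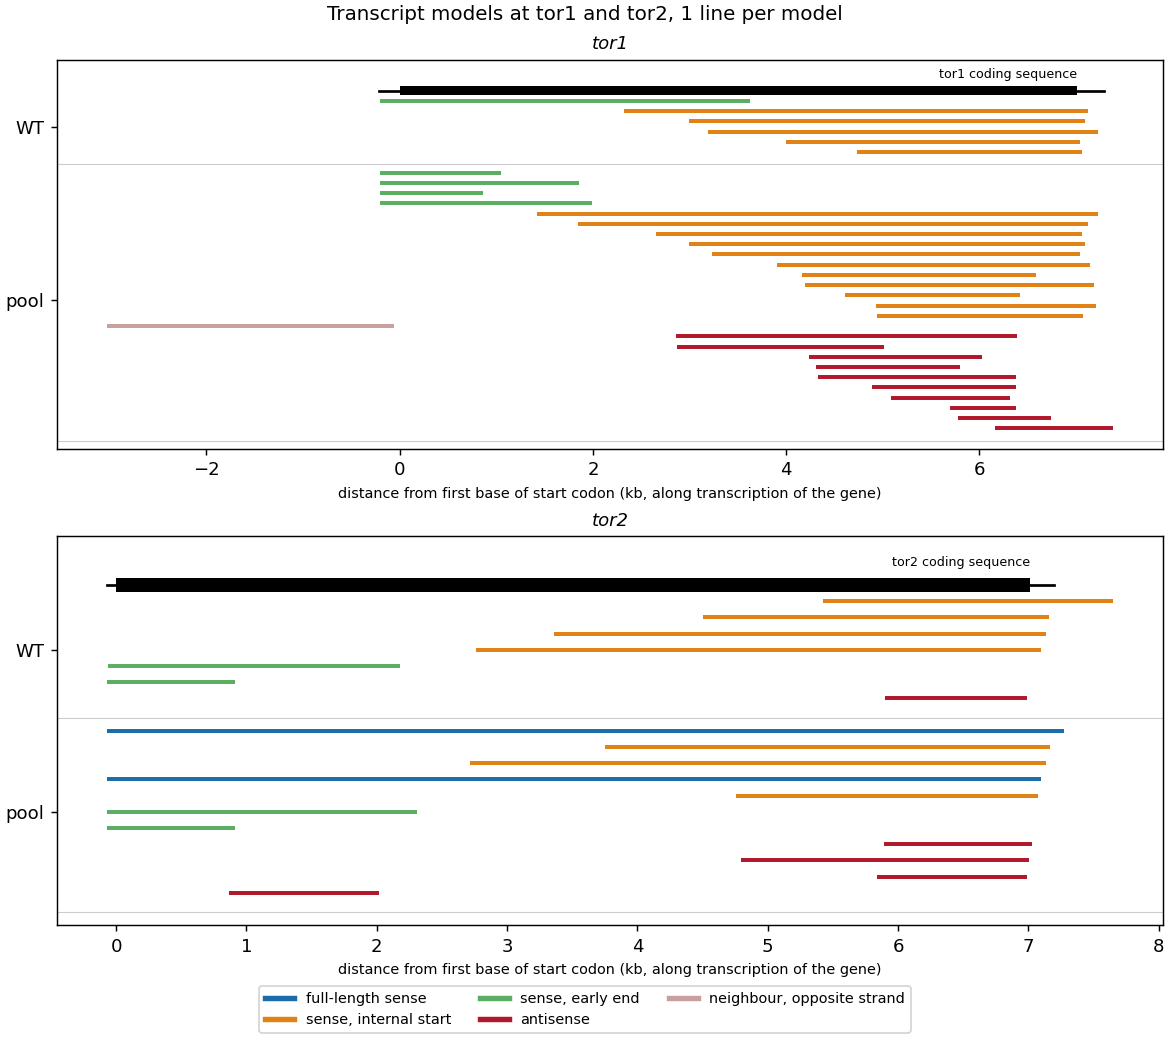
Transcript models at *tor1* and *tor2* in the WT library and the pool library, 1 line per model from its start to its end, against the distance from the first base of the start codon in kb; the thick black bar is the coding sequence and the thin line the annotated transcript. At *tor1* the early-end models share a start just before the coding sequence while the internal-start models fan out, and at *tor2* the pool has 2 lines across the whole gene.

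An early end was counted when a sense model ends after the start codon and at least 100 nt before the stop codon, wherever it begins. In WT, 4 of the 10 genes have early ends (*tor1*, *tor2*, *mip1* and *pka1*; 19.1% of all protein-coding genes do), and in the pool 7 have them (43.6% of all genes), with *gad8*, *sck2* and *psk1* in addition. These shares over all genes are likewise not matched for length. *gad8* and *tor1* carry 6 each of the 23 early-end models of the pool, *pka1* carries 4, and the other genes have 1 or 2. In *gad8*, 4 of the 6 stop within the last part of the coding sequence, 281 to 419 nt before the stop codon, and the other 2 stop at neighbouring positions, 1303 and 1304 nt before it.

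Ends inside genes can lie before runs of A in the genome, where an oligo-dT primer can anneal, so the next 20 nt of the genome were read at each end. An end was called A-rich with at least 12 A among them. In these genes 2 of 5 early ends of WT were A-rich (47.5% over all protein-coding genes), and 8 of 23 in the pool (32.6% over all genes). Of the ends of full-length models, 2 of 36 were A-rich in WT (10.1% over all genes) and 4 of 73 in the pool (10.5%). Priming at such runs was not tested.

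Of the 5 early ends of WT, 2 have an early end of the pool within 10 nt, against 79.7% over all genes. They are a *tor2* end, which belongs to a model of 979 nt with identical coordinates in both libraries, and the *pka1* end at 397688, which belongs to a model of 1507 nt that is likewise identical. Both are A-rich. The last 10 nt of the model (lower case) and the next 20 nt of the genome (capitals) are shown for this *pka1* end, for the A-richest *tor1* end, and for the *tor2* and *pka1* ends with the fewest A, on the strand of the gene from the RefSeq ASM294v3 sequence, to let the difference in composition be read.
pka1 end, chrII:397679-397708, + strand, 12 A of 20: aaggttttagAAAAGAAAAAAATCGTTGAT
tor1 end, chrII:3076999-3077028, + strand, 13 A of 20: aaagtacgtgAAAAAACGCAATATGAAAAG
tor2 end, chrII:920087-920116, - strand, 4 A of 20: tgatccgtatATTGAATTCCCTTCTTTACT
pka1 end, chrII:397740-397769, + strand, 4 A of 20: gatacattttATCCCGTGTCCAACACCCGT

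*mip1* (SPAC57A7.11, chromosome I, 1517223 to 1521442, - strand) encodes the Raptor-like subunit of TORC1, which brings substrates to the kinase. Its coding sequence of 3942 nt without introns was spanned by 3 of 4 models in WT and 4 of 7 in the pool. Their 5′ leaders, the transcribed stretch before the start codon, measured 161 to 182 nt in WT and 161 to 178 nt in the pool, beside an annotated leader of 152 nt. The 3′ untranslated regions (UTRs) ranged from 51 to 269 nt and from 50 to 359 nt. Starts of these models thus varied little while 3′ ends were spread widely, and the ranges of the libraries overlap. The authors' collapse joins models that differ only by a shorter 5′ end, so it bears on this contrast. Its share in the contrast was not tested.

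*gad8* (SPCC24B10.07, chromosome III, 912500 to 915238, + strand) encodes the AGC-family kinase that TORC2 activates. Its full-length models have a median 5′ leader of 620 nt in WT (9 models, range 303 to 630) and 624 nt in the pool (10 models, range 617 to 640), beside 617 nt in the annotation. The median leader over all genes with full-length models is 122 nt in WT (pool, 131.5 nt), and 93.8% and 92.7% of these genes have a shorter median leader than *gad8*. The short value of 303 nt in WT comes from 1 model. The most common leader, of 620 nt, holds no ATG upstream of the start codon.

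*sck2* (SPAC22E12.14c, chromosome I, 5045616 to 5049012, - strand), an AGC-family kinase below TORC1, has long UTRs at both ends. Its leader has a median of 495 nt in both libraries, equal to the annotated length, with ranges of 488 to 519 nt over 6 models in WT and 493 to 500 nt over 9 in the pool. This leader contains 2 upstream ATGs, and the longer of their reading frames has 37 codons. At least 1 upstream ATG is present in the leader of 42.5% of all genes with full-length models in WT and 43.9% in the pool. These shares are over leaders of all lengths and are not matched to the long *sck2* leader. The median 3′ UTR is 738.5 nt in WT (range 54 to 1035) and 798 nt in the pool (range 594 to 1061), longer than in 94.3% and 95.4% of genes.

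*sck1* (SPAC1B9.02c, chromosome I, 2402016 to 2404703, - strand), a related kinase, has 1 model in WT, with a leader of 132 nt and a 3′ UTR of 267 nt. In the pool, 4 of its 5 full-length models share a leader of 103 nt, and the other begins far upstream, with a leader of 812 nt. *psk1* (SPCC4G3.08, chromosome III, 457709 to 459495, - strand) encodes a ribosomal S6 kinase homologue below TORC1. Its 5 full-length models in WT and 10 in the pool have leaders of 77 to 81 and 77 to 85 nt, with a median of 81 nt in each library. Its 3′ UTRs range from 88 to 371 nt in WT and from 96 to 609 nt in the pool.

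*pka1* (SPBC106.10, chromosome II, 396992 to 398957, + strand) encodes the catalytic subunit of protein kinase A, and its annotation starts at the start codon, with no 5′ UTR. The single full-length model of WT has a leader of 829 nt. In the pool the 5 full-length leaders are 392, 827, 829, 834 and 957 nt long. A start about this far upstream was thus found in both libraries, and 96.6% and 96.1% of genes have a shorter median leader. The early-end models start nearby, 810 nt before the start codon in WT and 804 to 829 nt before it in the pool. The leaders of 829 and 834 nt hold 2 upstream ATGs, and the longer of their reading frames has 10 codons. Since these starts lie outside the annotated gene, the 30 nt before the start of the 834-nt leader are shown, with no capitals because the motif TATAAA does not occur in them.
pka1 upstream of start, chrII:396128-396157, + strand: ggggtagtaagggcatgacttcaaccttgc

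A leader of at least 400 nt in the median was found for *gad8*, *sck2* and *pka1* in both libraries, which is 3 of the 8 genes with full-length models in WT (13.5% over all protein-coding genes) and 3 of 9 in the pool (15.8%). With each cluster of starts counted as 1, the pool median of *sck1* also passes this limit, at 457.5 nt in place of 103 nt, because of the 1 model that starts far upstream. TATAAA was searched in the 60 nt before the most common start of full-length models, on both strands. None of the 8 genes in WT and none of the 9 in the pool holds it, beside 10.4% and 11.3% of all genes with full-length models. The absence says only that these letters are not in this window.

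*cgs1* (SPAC8C9.03, chromosome I, 3643029 to 3645636, + strand) encodes the regulatory subunit that holds Pka1 inactive, and *cgs2* (SPCC285.09c, chromosome III, 1810337 to 1812643, - strand) the cAMP phosphodiesterase. Both have long 3′ UTRs. That of *cgs1* has a median of 791.5 nt in WT (6 models, range 596 to 892) and 772 nt in the pool (11 models, range 22 to 1153). That of *cgs2* has a median of 689 nt in WT (5 models, range 441 to 1203) and 1036 nt in the pool (17 models, range 320 to 2011). The ranges of the libraries overlap in both genes. A median 3′ UTR of at least 600 nt was found for *sck2*, *cgs1* and *cgs2*, which is 3 of 8 genes in WT (9.38% over all genes) and 3 of 9 in the pool (9.31%), and the median over all genes is 208 nt in WT (pool, 219 nt).

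At its other end *cgs2* has a very short leader. Its starts lie 10 or 12 nt before the start codon in WT and 10 to 14 nt in the pool, and only 1.26% and 2.23% of genes have a shorter median leader. The *cgs1* leader, in contrast, has a median of 206 nt in both libraries, close to the annotated 210 nt, and 1 pool model extends it to 461 nt. Median leaders of the genes with full-length models therefore run from 10 nt in *cgs2* to 829 nt in *pka1* in WT, and from 12 to 829 nt in the pool. *tor1* has no leader value.

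**Figure D4:**
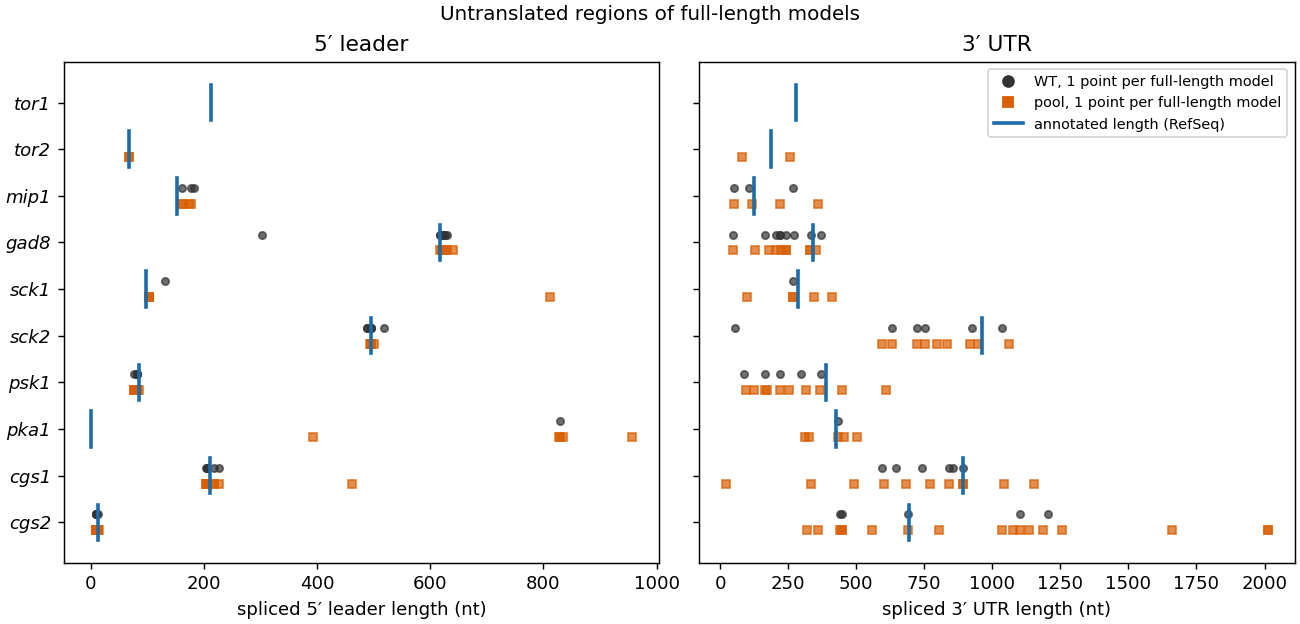
Spliced length in nt of the 5′ leader (left) and 3′ UTR (right) of every full-length model, by gene and library, with the annotated length as a vertical line. Leaders cluster tightly in *mip1*, *sck2*, *psk1* and *cgs2*, while single models of *gad8*, *sck1* and *cgs1* and some of *pka1* stand apart. The authors' collapse, which joins models that differ only by a shorter 5′ end, bears on this spread. *tor1* has no points because it has no full-length model, and *pka1* is annotated without a 5′ UTR.

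Several of the genes overlap convergent neighbours. *cgs2* and *ret2*, which encodes a subunit of the COPI vesicle coat, face each other and overlap by 496 nt in the annotation. All full-length *cgs2* models reach *ret2*, and 2 of 5 in WT and 10 of 17 in the pool reach its coding sequence, with overlaps of up to 934 and 1341 nt of exon. In the pool, 2 models cross *ret2* altogether. From the other side, 3 *ret2* models in WT and 11 in the pool overlap *cgs2*, none of them in its coding sequence. Between *gad8* and *ada2*, which encodes a subunit of the SAGA coactivator, 8 of 9 full-length *gad8* models in WT and 8 of 10 in the pool overlap the neighbour, by at most 229 and 211 nt where the annotations overlap by 199 nt, and *psk1* overlaps *gyp3*, by 51 nt in the annotation, in 1 of 5 and 3 of 10 models. The annotations of *pka1* and its convergent neighbour *plg7* do not overlap. Yet 1 *plg7* model in WT and 5 in the pool overlap *pka1*, by at most 155 and 414 nt and outside its coding sequence. At *tor2*, 1 WT model runs 141 nt into *swi1* on the same strand without reaching its coding sequence.

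Of the 10 genes, 4 contain introns, 8 in all. In WT, 2 of these 4 genes have a model that retains an intron (46.1% of all protein-coding genes with introns do), and in the pool all 4 do (85.2%). The *gad8* intron of 71 nt was retained in 1 of 9 models that cross it in WT and in 5 of 16 in the pool. The *cgs2* intron of 452 nt was retained in 1 of 6 and in 6 of 20. The *cgs1* intron of 265 nt was spliced in all 6 models of WT and retained in 1 of 11 in the pool, and of the 3 *sck1* introns only that of 50 nt was retained, in 1 of 7 pool models.

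The annotation of *cgs2* includes an exon of 9 nt (chromosome III, 1812472 to 1812480) between introns of 61 and 46 nt. No model of either library contains this exon spliced on both sides. All 6 WT models across it and 17 of 18 in the pool instead join the flanking exons by an intron of 116 nt with GT and AG at its ends, which leaves the reading frame intact. The remaining pool model removes the 46-nt intron and keeps the exon together with the 61-nt intron before it. The annotated exon and the ends of the longer intron are shown on the strand of the gene from RefSeq ASM294v3, with exon letters in capitals.
cgs2 short exon, chrIII:1812462-1812491, - strand: aacgaaaacagGGACAAAATgtaagaattc
cgs2 exon before the longer intron, chrIII:1812527-1812556, - strand: ACATTATATTCATTGgtatgaaaaacgaaa
cgs2 exon after the longer intron, chrIII:1812411-1812440, - strand: atgctgacttattagGGGGGTCCATTGGAG

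The same was seen at other annotated coding exons of this size. Of the 14 internal exons of 1 to 9 nt that models span, none is included in either library and 10 are skipped in each. Inclusion rises to 19 of 26 exons in WT and 28 of 35 in the pool at 10 to 19 nt, and all 53 and 61 exons of 20 to 29 nt are included. The reads were not analysed here, so whether the short exon is missing from the RNA or from its alignment was not tested.

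Introns outside the annotation were rare in the other genes. A pool model of *gad8* removes 125 nt with GT and AG ends from the 3′ UTR. The gaps in single pool models of *sck2* (1195 nt), *psk1* (92 nt), *cgs1* (210 nt) and *cgs2* (224 nt) do not have GT and AG ends.

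Antisense models were counted when their exons overlap those of a gene on the opposite strand and no exon of a gene on their own strand, with annotated non-coding genes left out. In WT, 2 of the 10 genes have antisense models (8.41% of all protein-coding genes do), *pka1* with 2 and *tor2* with 1. In the pool, 7 have them (55.5% of all genes), with 10 models at *tor1*, 4 each at *tor2* and *gad8*, 3 at *mip1*, 2 each at *sck1* and *cgs1*, and 1 at *pka1*. *sck2*, *psk1* and *cgs2* have none in either library. The shares over all genes are not matched for length here either, and the paper reports that longer genes more often give rise to antisense transcripts. The pool library also has more sense models, and it includes RNA of *hrp1*Δ*hrp3*Δ cells and of treated cells. The higher number of antisense models there was not separated from library size, genotype or treatment.

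At *tor1* the 10 antisense models of the pool are 692 to 3532 nt long. Of these, 4 start between 3082335 and 3082347, 621 to 633 nt before the stop codon of *tor1*, and the other 6 start at separate places. At *tor2*, 1 WT model and 3 pool models start between 915260 and 915295, around the end of the coding sequence, and another pool model starts deep in the gene, 4994 nt before the stop codon. The 4 *gad8* models start as pairs at 914530 and 914545 and at 914614 and 914616. Taking starts within 50 nt as 1 cluster, the 10 genes have 19 antisense start clusters over both libraries, of which 15 lie in a coding sequence, 1 in a 3′ UTR and 3 beyond the annotated end of the gene. None has TATAAA in the 60 nt before it on either strand. Places and motif were not counted for antisense starts over all protein-coding genes, so these counts only describe the 10 genes.

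At *pka1* no lncRNA is annotated on the antisense strand. Its 3 antisense models start at 398311, at 398334 and again at 398311, that is 196 to 219 nt before the stop codon, with 2 in WT and 1 in the pool. They run across the start codon into the 5′ leader and end at 396721 and 396924 in WT and at 396923 in the pool. A start at 398311 thus recurred between libraries to the nt and its end within 1 nt. The 30 nt before this start are shown on the antisense strand, again without TATAAA.
pka1 upstream of antisense start, chrII:398312-398341, - strand: aatatccatgctaccatctttcaaatttcc

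All antisense models of the other genes lie over annotated lncRNAs of the same strand, which makes 1 of the 3 antisense models of WT and 25 of the 26 of the pool. With non-coding genes kept as reference genes, *pka1* is therefore the only gene of the 10 that still has an antisense model, in each library. The annotation holds 7171 lncRNA genes, and the same shares over all protein-coding genes are not given. Whether these counts are unusual thus cannot be read from them. A-rich ends were also present among antisense models, in 1 of 3 in WT and 4 of 26 in the pool, with 3 of the 4 *gad8* models among them. No share over all genes is given for antisense ends. In the pool, 2 early sense ends of the 20 in genes with antisense models lie within 10 nt of an antisense start of the same gene, a share of 10% against 1.81% over all protein-coding genes. Both are in *gad8*, where sense models end at 914534 and 914616, so the share rests on 1 gene. The end at 914616 is A-rich, with 12 A of 20. In WT, 0 of 3 such early ends lie there, against 2.07% over all protein-coding genes.

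**Figure D5:**
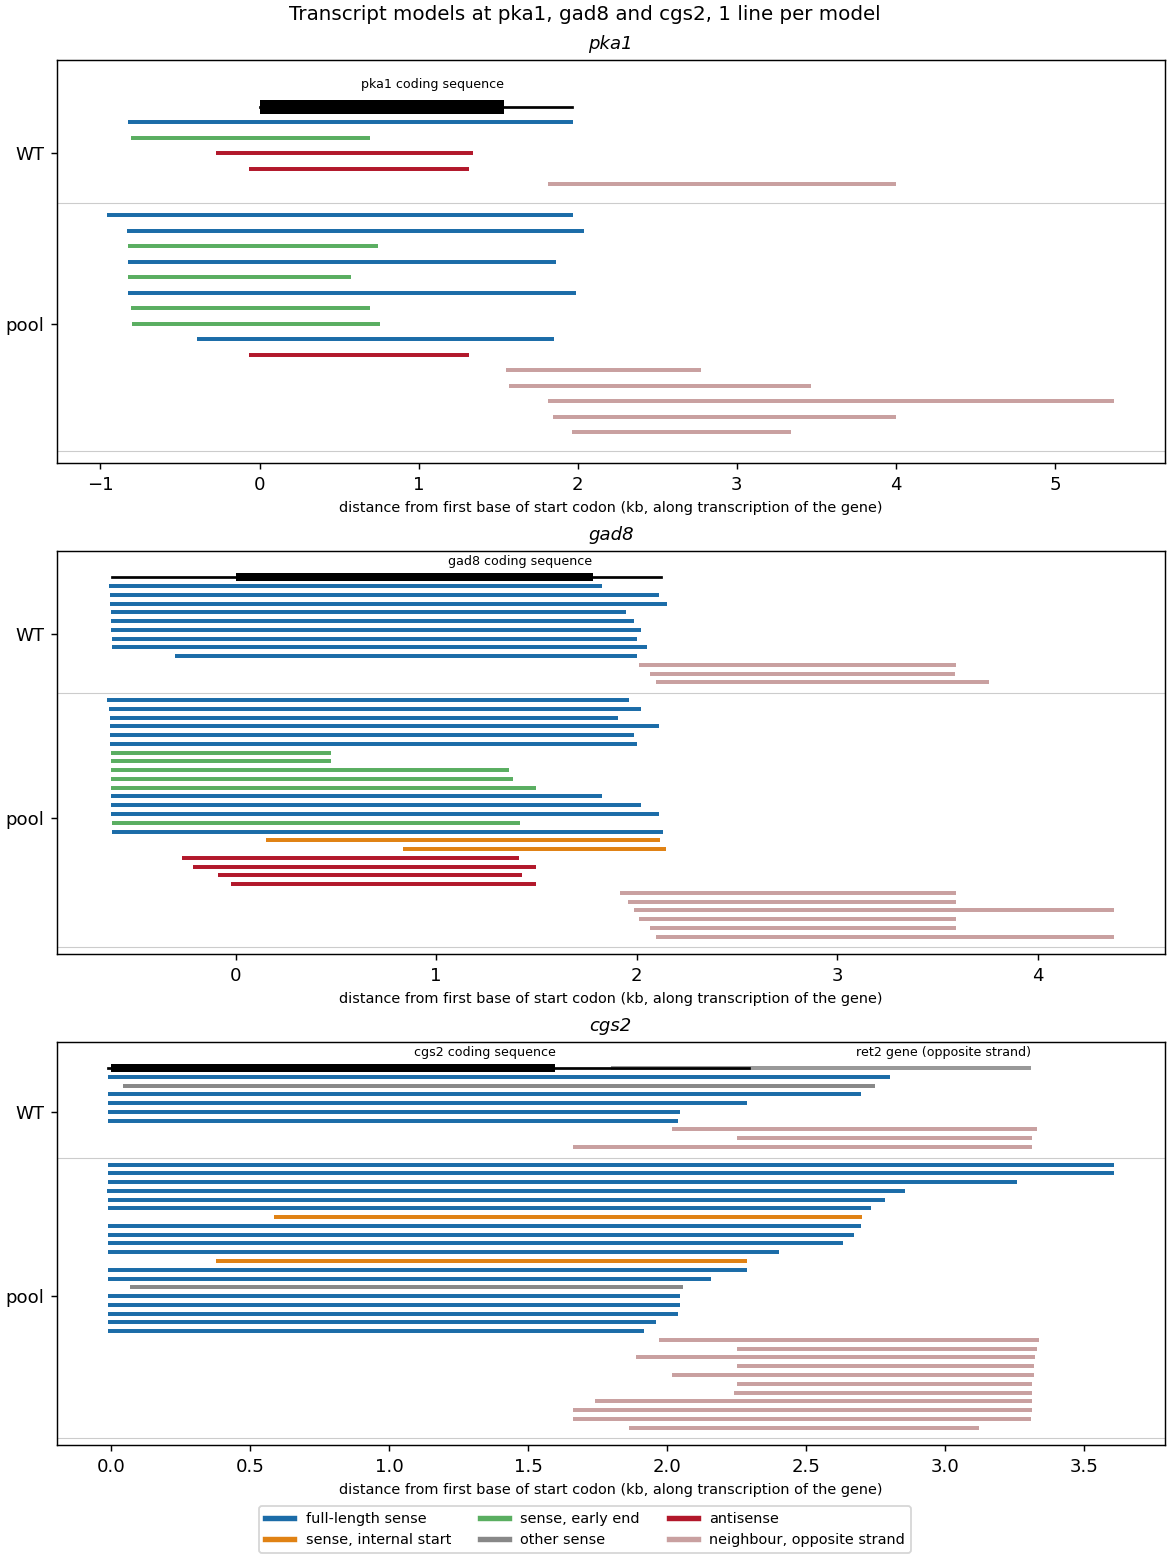
Transcript models at *pka1*, *gad8* and *cgs2*, 1 line per model from its start to its end drawn through introns, against the distance from the first base of the start codon in kb; black is the gene with its coding sequence thick, and grey at *cgs2* marks *ret2*. The *pka1* antisense models have nearly the same start in both libraries, and models of *cgs2* extend into *ret2*.

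Further genes of the pathways gave values for comparison. All 25 listed genes were found in the annotation, 12 of TORC1 signalling, 5 of TORC2 and 8 of the cAMP pathway. In WT, 22 have a full-length model (88.3% of all protein-coding genes do), 5 an internal start (18.1%), 6 an early end (19.1%) and none an antisense model (8.41%). In the pool, 24 have a full-length model (96.7%), 12 an internal start (43.7%), 15 an early end (43.6%) and 13 an antisense model (55.5%). *cyr1*, the adenylate cyclase with a coding sequence of 5079 nt, has no full-length model in either library, with 3 sense models in WT and 12 in the pool. The most antisense models in the pool lie at *tsc2* (16) and *tsc1* (10), whose products form the complex that restrains the GTPase Rhb1, and at *iml1* (11), a subunit of a complex that restrains TORC1. Of the 12 TORC1 genes only 4 have antisense models in the pool, and *npr2* and *npr3* are among those without. The coding sequences of *tsc2*, *tsc1* and *iml1* measure 4020, 2700 and 4491 nt. No number for other genes of such length is given. *fkh1*, which encodes the rapamycin-binding protein FKBP12, has no sense model in WT and 15 in the pool. Its coding sequence measures 339 nt, and *git11*, with 219 nt, likewise has none in WT and 3 in the pool. Of all protein-coding genes with less than 1000 nt, 81.1% have a full-length model in WT and 95.5% in the pool. No share is given for genes as short as *fkh1* and *git11*.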

How the data were processed

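2 long-read libraries, each the only one of its condition, were analysed at 10 genes. According to the study's methods, the authors obtained isoforms from HiFi reads by Iso-Seq4 and aligned these by minimap2 (splice preset). Redundant models were merged by TAMA Collapse with its no-cap setting and a tolerance of 100 nt for its options -a and -m. The methods name no tolerance for 3′ ends. The deposited files give exon positions per model and a score of 40 on every line, which was not used. They hold no read numbers, so the depth is unknown. The labels name ASM294v2. Models were compared with the RefSeq annotation of ASM294v3, on which all lie within chromosome ends, and 6 (WT) and 7 (pool) of the 8 annotated introns of these genes were found exactly. Coordinates are 1-based on ASM294v3.

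Models were classified with Python 3.11.15, NumPy 2.4.6 and SciPy 1.17.1, drawn with Matplotlib 3.10.9, and the classes tested on simulated data. The annotation was used without 7171 lncRNA genes, leaving 5113 protein-coding and 322 other genes. UTR lengths are spliced lengths from full-length models that reach no other coding sequence on their strand. Retained introns needed 10 nt of exon on each side. All 10 genes are named, with their neighbours, the deleted or altered loci and the listed pathway genes that stood out, the last chosen after their values were seen. Members and lists were chosen with earlier results of these data known. The limits for A-rich ends, shared positions (10 nt), long leaders (400 nt), long 3′ UTRs (600 nt) and long coding sequences (6000 nt) were set after the models were seen. Alternatives covered the definitions of full-length, sense, internal start, early end, antisense and retained intron, and the joining of similar models. The sequence after 1 end is not reported here.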

Additional observations from a re-analysis of the deposited data

How the results depend on the processing

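No paired analysis was possible because each condition has 1 library. Of 38 pairs of a summary value and an alternative, 34 were unchanged by the rule used, as were 115 of 128 such pairs for single genes. The rule allowed counts to move by 1.5 times, a gene's median UTR length by the SD over its models, and the median over genes by the SD between genes. These limits are wide, so a pair called unchanged can still hold clearly different values. The 52 sense models of WT became 33 when models with ends and junctions within 100 nt were joined. With non-coding genes kept in the reference, the genes with an antisense model fell to 1 in WT and 1 in the pool, because models over annotated lncRNAs no longer count. No share over all genes is given for this setting. With every model of the opposite strand counted, 5 genes had one in WT, because transcripts of convergent neighbours enter. Leaving out ends before 12 or more A, an alternative chosen after seeing the data, kept early ends in 3 genes in WT and 5 in the pool, and antisense models in 2 and 7. With each cluster of starts or ends counted as 1, the pool median leader became 457.5 nt in *sck1* (from 103 nt) and 333.5 nt in *cgs1* (from 206 nt), the WT median leader became 461.5 nt in *gad8* (from 620 nt) and 161 nt in *mip1* (from 178 nt), the pool 3′ UTR of *psk1* became 367 nt (from 236 nt), and the median leader over the genes became 333.5 nt in the pool (from 167 nt). The changes in the *psk1* 3′ UTR and in the median leader over the genes were counted as unchanged by the rule. So was the fall from 123 to 84 sense models in the pool when models were joined within 100 nt. *pka1* kept 1 of 2 sense models in WT and 5 of 9 in the pool when most of a model had to lie in the annotated gene. Unknown depth limits every absence.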
